A study of Mus musculus with 15 samples.

Results

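The 10 genes described here, Igf2r, H19, Igf2, Cdkn1c, Meg3, Dlk1, Grb10, Ndn, Plagl1 and Peg3, are imprinted genes with roles in growth control or stem cell quiescence, followed in sorted mouse blood stem and progenitor cells. They were chosen by name, and all 10 have a row among the 44827 genes of the normalized expression table. Of these, 4 passed the filter for testing (Igf2r, Grb10, Ndn and Cdkn1c), which asked for at least 1 CPM (counts scaled to library size) in at least 3 libraries and was met by 13927 genes. The other 6 lay below it and are described by their counts. They were tested only in an alternative fit without the filter.

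RNA was sequenced from bone marrow LSK cells, a sorted fraction that lacks lineage markers, carries Sca1 and cKit and holds the blood stem cells with their first descendants. There were 5 groups of 3 libraries: leukemic Tet2(-/-) Nras(G12D) mice (the leukemic double mutant), Tet2(-/-) Nras(G12D) mice not labelled leukemic (the double mutant), Nras(G12D) mice, Tet2(-/-) mice and wild type (WT), all C57BL/6. The design text calls the mutant alleles conditional and specific to hematopoietic tissue, with no Cre driver given in the sources used here, and the mice of its methylome work are put at 6 months of age. Tet2 encodes an enzyme that oxidises methylated cytosine, and Nras(G12D) is an activating RAS mutation. The leukemic libraries alone carry BMT in their description, a term whose meaning was not established and whose effect cannot be separated from that of leukemia. Whether libraries of 1 group came from different animals is not stated, so p-values reflect the spread among libraries and may be technical.

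Imprinted genes are expressed mainly from the copy inherited from 1 parent, and DNA methylation set in the germ line marks which copy that is. In this set the maternally expressed genes are Igf2r, Grb10, Cdkn1c, H19 and Meg3. Igf2r encodes a receptor that removes the growth factor IGF2 from the cell surface and carries enzymes tagged with mannose 6-phosphate to lysosomes. Grb10 encodes an adaptor that damps signalling from the insulin and IGF1 receptors, Cdkn1c encodes a cyclin-dependent kinase inhibitor that helps to hold mouse blood stem cells in quiescence, and H19 and Meg3 are long noncoding RNAs. The paternally expressed genes are Igf2, a fetal growth factor, Dlk1, a membrane protein related to Notch ligands, Ndn, a growth-suppressing protein of the MAGE family, and Plagl1 and Peg3, zinc-finger proteins.

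Igf2r, Ndn and Grb10 are the members whose libraries lay wholly below WT in the double mutant, and since CG dinucleotides are where DNA methylation is mostly found, their promoters are shown with every CG in capitals. Each window runs from 250 bases before to 50 after the start of transcription in RefSeq (GRCm38.p6), 5′ to 3′ on the strand of the gene. The Igf2r window is chr17:12769657-12769956 (minus strand), that of Ndn is chr7:62348027-62348326 (plus strand) and that of Grb10 is chr11:12037371-12037670 (minus strand).
Igf2r promoter: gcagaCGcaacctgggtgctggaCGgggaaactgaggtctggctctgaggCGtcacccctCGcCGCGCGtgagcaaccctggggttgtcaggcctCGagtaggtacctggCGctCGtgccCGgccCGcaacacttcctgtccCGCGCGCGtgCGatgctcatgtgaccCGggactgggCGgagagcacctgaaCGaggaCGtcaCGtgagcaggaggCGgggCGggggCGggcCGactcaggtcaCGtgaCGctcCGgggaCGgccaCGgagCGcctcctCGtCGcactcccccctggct
Ndn promoter: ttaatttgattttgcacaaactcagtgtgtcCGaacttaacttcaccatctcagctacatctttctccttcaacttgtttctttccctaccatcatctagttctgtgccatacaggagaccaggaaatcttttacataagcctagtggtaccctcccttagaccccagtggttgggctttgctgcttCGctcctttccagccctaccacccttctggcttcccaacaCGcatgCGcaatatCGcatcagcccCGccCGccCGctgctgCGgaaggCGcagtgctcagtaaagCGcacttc
Grb10 promoter: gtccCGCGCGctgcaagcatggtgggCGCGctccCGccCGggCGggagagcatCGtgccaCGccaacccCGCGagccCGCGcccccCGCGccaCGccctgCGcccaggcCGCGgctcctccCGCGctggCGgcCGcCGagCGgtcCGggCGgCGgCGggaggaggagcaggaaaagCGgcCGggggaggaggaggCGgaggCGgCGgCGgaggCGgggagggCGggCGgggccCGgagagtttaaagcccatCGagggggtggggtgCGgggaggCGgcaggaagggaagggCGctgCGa
The Igf2r window holds 34 CG, more than 92.3% of the 32851 RefSeq promoters of the same length, and the Grb10 window holds 45, more than 98.1%. The Ndn window holds 11 CG, against a median of 7 over all promoters, 94.57% of which hold at least 1. A further RefSeq promoter of Grb10, at chr11:12027922-12028221, holds 9. The palindrome CACGTG, read on both strands and itself containing a CG, occurs in the Igf2r window at positions 203 and 244 from its 5′ end and in 7.15% of all promoters. RefSeq promoters were found for 8 of the 10 genes. Methylation data were not used here.

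Total counts per library ran from 22733189 to 43562909. Tet2 itself, counted over the whole gene, was at 32.3 to 76.5 CPM in the leukemic double mutant, 47.9 to 62.6 in the double mutant, 45.2 to 75.1 in Nras(G12D), 35.9 to 59.8 in Tet2(-/-) and 50.7 to 65.2 in WT. These ranges overlap, and since the labels do not name the deleted exons, whole-gene counts of Tet2 do not check the genotypes. The list called LSK-defining here holds Kit, Ly6a, Cd34, Flt3, Gata2, Meis1 and Ptprc, and so goes beyond the Sca1 and cKit used for sorting. Summed LSK-defining markers (7 genes, none at 0 in all libraries) stood at 3292, 894 and 1677 CPM in leukemic libraries 1 to 3, 3360.3 to 4025 in the double mutant, 2723 to 5932 in Nras(G12D), 5205 to 6244 in Tet2(-/-) and 3836 to 4307 in WT. Summed erythroid markers (11 of 12 listed genes, none at 0 in all libraries) were 1520.4, 10882 and 5660.3 CPM in leukemic libraries 1 to 3, 1065 to 1407 in the double mutant, 1051 to 2284 in Nras(G12D), 1335 to 1762 in Tet2(-/-) and 1336 to 1499 in WT. By these markers leukemic libraries 2 and 3 stood apart from leukemic library 1 and from the other groups. Ddx3y, on the Y chromosome, was at 91.5 to 259 CPM in leukemic library 1, double mutant library 1, Nras(G12D) library 2 and Tet2(-/-) libraries 1 and 2, and did not exceed 0.457 CPM elsewhere. Xist, the RNA of X inactivation, had 366 to 489.8 CPM in WT. Each mutant group therefore mixes the sexes while WT holds 1 sex.

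Igf2r (chromosome 17, 12682406 to 12769664, minus strand, GRCm38) was lower in every mutant library than in any WT library. It was at 4.77, 17.3 and 13.5 CPM in leukemic double mutant libraries 1 to 3, and double mutant libraries had 9.65, 9.62 and 3.86 CPM. Nras(G12D) libraries had 15.98, 28.3 and 23.8 CPM, Tet2(-/-) libraries 32.3, 25.5 and 33.3 CPM, and WT libraries 40.7, 34.9 and 49.6 CPM. From WT down, the order of the means was Tet2(-/-), Nras(G12D), the leukemic double mutant and the double mutant. WT did not overlap Tet2(-/-), and each further pair of neighbours in that order overlapped. Group means were 11.9 ± 6.42 CPM in the leukemic double mutant, 7.71 ± 3.33 in the double mutant, 22.7 ± 6.25 in Nras(G12D), 30.4 ± 4.24 in Tet2(-/-) and 41.7 ± 7.39 in WT (SD, n = 3 each).

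On the log2 scale Igf2r fell by 2.54 ± 0.45 in the double mutant against WT (limma, adjusted p = 0.0219), which is 5.80-fold lower. It fell by 1.99 ± 0.45 in the leukemic double mutant against WT (limma, adjusted p = 0.00868), which is 3.97-fold lower. Against Tet2(-/-) the double mutant fell by 2.08 ± 0.45 (limma, adjusted p = 0.00653). The level was also lower without overlap, but not past the threshold, in the double mutant against Nras(G12D) (log2 -1.63 ± 0.45, limma adjusted p = 0.415), in Nras(G12D) against WT (-0.90 ± 0.45, 0.984) and in Tet2(-/-) against WT (-0.45 ± 0.45, 0.544). The leukemic double mutant and the double mutant overlapped (0.55 ± 0.45, limma adjusted p = 0.391).

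The interaction asks whether the double mutant differs from the sum of both single-mutant changes, and for Igf2r it was -1.18 ± 0.64 (limma, adjusted p = 0.296). The fall in the double mutant against WT lost its call without double mutant library 2 (log2 and limma adjusted p of -2.75, 0.0653) or 3 (-2.10, 0.126), and without WT library 1 (-2.55, 0.119), 2 (-2.66, 0.0588) or 3 (-2.40, 0.108). The falls in the leukemic double mutant against WT and in the double mutant against Tet2(-/-) kept their calls in all 16 alternatives tried for each.

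Dendritic cell markers (9 genes, none at 0 in all libraries) were higher beside the low Igf2r of the double mutant, where 4 of the 9 rose against WT, beside 0.488% higher among all tested genes. That count was 0 without double mutant library 2 or 3 or any 1 WT library, and 5 without double mutant library 1. Their summed level was 565 to 1310.2 CPM in the leukemic double mutant, 2811 to 4449 in the double mutant, 1542 to 4165 in Nras(G12D), 1256 to 4396 in Tet2(-/-) and 741 to 1116 in WT. Dendritic sums of the leukemic libraries overlapped those of WT, but their erythroid and LSK-defining sums, given above, did not. Other marker sums also lay above WT without overlap in the double mutant. Mast cell and basophil markers summed to 385 to 456 CPM there, against 170 to 278 in WT. Monocyte and macrophage markers summed to 631 to 690 CPM, against 537 to 571 in WT. No gene of either list was called in that comparison, and the remaining marker sums overlapped WT. The part of dendritic or other cells in the Igf2r values of either double mutant group was not tested. In bulk samples fewer cells of a type and less RNA per cell cannot be told apart.

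**Figure D1:**
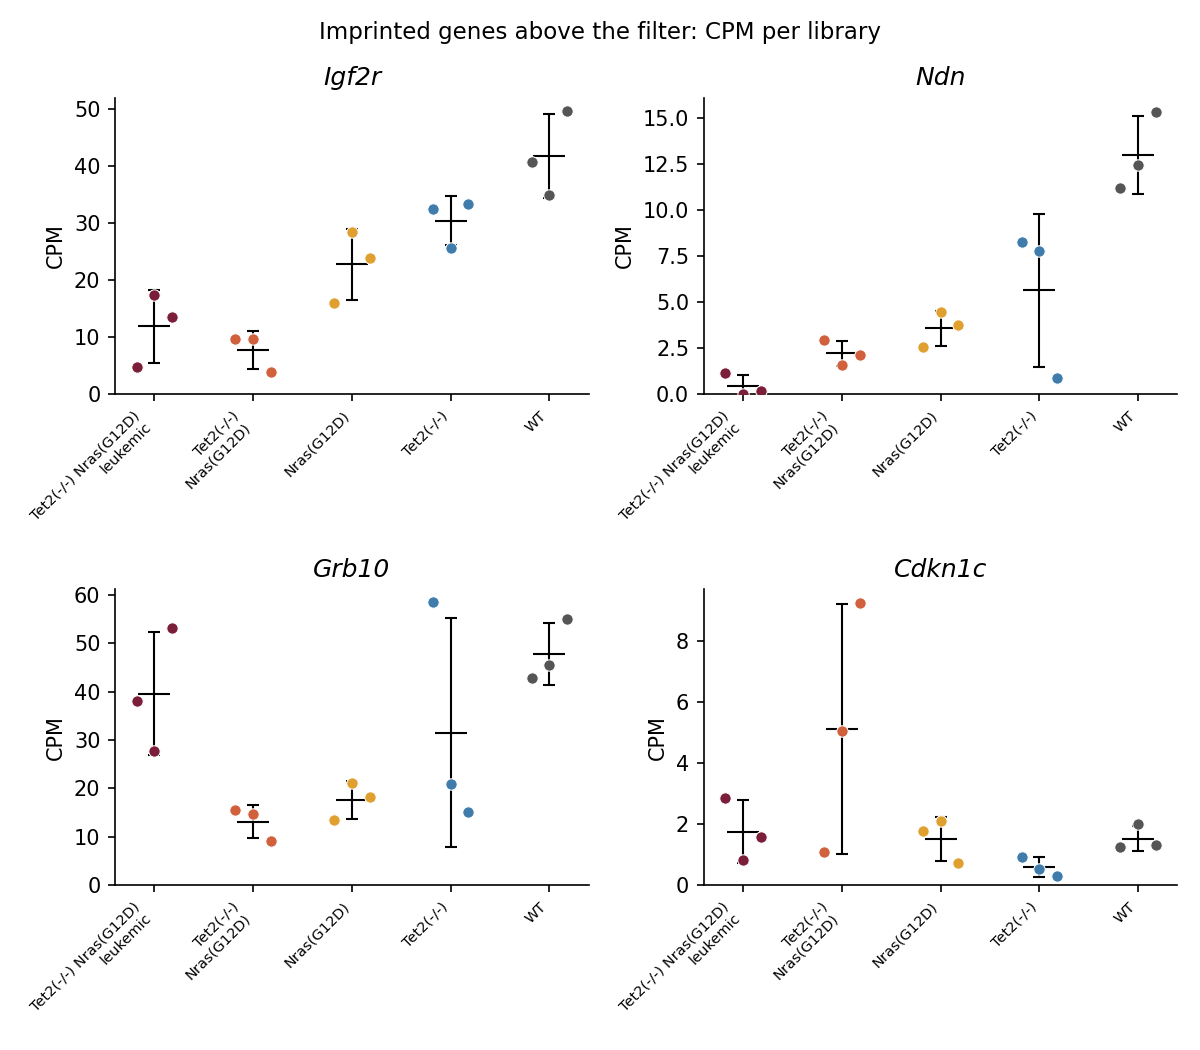
CPM of the 4 tested imprinted genes in each library (points), by group, with the group mean (horizontal line) and SD (bars, n = 3). Igf2r and Ndn lay below all WT libraries in every mutant library, Grb10 was at 27.6 to 53.03 CPM in the leukemic double mutant against 9.16 to 15.6 in the double mutant, and Cdkn1c was highest in double mutant libraries 2 and 3.

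Igf2r overlaps Airn, the paternally expressed antisense RNA that silences it on the paternal copy, over 28354 bases on the opposite strand, with 0 exonic bases in common. Airn and Slc22a3, of the same imprinted cluster, are named for their position and were picked after their values were seen. Airn was at 0.172, 1.19 and 0.468 CPM in the leukemic double mutant, 0.277, 0.121 and 0.0702 in the double mutant, against 1.30, 0.626 and 0.879 in WT. Its double mutant libraries lay below those of WT, with a log2 change of -2.59 ± 0.74 that did not pass (limma, adjusted p = 0.104). Slc22a3, a cation transporter gene, had 204, 288 and 265 CPM in double mutant libraries against 93.9, 171 and 153 in WT, without overlap (log2 0.89 ± 0.52, limma adjusted p = 0.477). How reads were counted, and whether by strand, is not known from the labels, and reads from overlapping genes may have been assigned to either.

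Genes of the mannose 6-phosphate route, a list of 27 genes covering the sister receptor, sorting adaptors and lysosomal enzymes, were all tested. In the double mutant against WT none of them passed, and their median log2 change was -0.14, against 0.00 over all tested genes. With 1 library left out, up to 3 rose there and none fell. In the leukemic double mutant against WT 7 rose and none fell, with a median of 0.32, beside 10.8% higher among all tested genes. Gga2, a sorting adaptor gene, was at 84.7, 272 and 199 CPM in the leukemic double mutant against 21.3, 45.1 and 36.8 in WT, and rose by 2.34 ± 0.54 on the log2 scale (limma, adjusted p = 0.00929). The number of rises was 4 without leukemic library 2, 1 without leukemic library 3, 1 without WT library 1 and 3 without WT library 3.

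In the double mutant against Tet2(-/-), where Igf2r also fell, 7 of the 27 rose and 8 fell, beside 20.1% higher and 8.57% lower among all tested genes. Nagpa, which encodes the enzyme that uncovers the mannose 6-phosphate tag, rose by 3.26 ± 0.66 on the log2 scale (limma, adjusted p = 0.00530), and Ctsd, a lysosomal protease gene, fell by 1.16 ± 0.24 (limma, adjusted p = 0.00535). Both calls held in all 16 alternatives tried for each. M6pr, the sister receptor gene, picked after its values were seen, had 360.3, 341 and 339 CPM in double mutant libraries against 651, 413 and 642 in Tet2(-/-). It fell by 0.68 ± 0.23 (limma, adjusted p = 0.0417), and that call was lost in 8 of 16 alternatives. The list had 2 rises and 2 falls without double mutant library 2, 2 and 1 without double mutant library 3 or Tet2(-/-) library 1, and 4 and 1 without Tet2(-/-) library 3. Without double mutant library 1 it had 5 rises and 5 falls.

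Ndn (chromosome 7, 62346569 to 62350262, plus strand, GRCm38) was lowest in the leukemic double mutant. It had 33, 0 and 5 counts there in libraries 1 to 3, which is 1.13, 0 and 0.156 CPM. The level was 2.94, 1.57 and 2.14 CPM in the double mutant, 2.55, 4.44 and 3.75 in Nras(G12D), 8.28, 7.76 and 0.861 in Tet2(-/-), and 11.2, 12.5 and 15.3 in WT. All 12 mutant libraries lay below the 3 WT libraries, and the leukemic libraries lay below those of the double mutant. Tet2(-/-) library 3 stood far below the other two of its group. Means were 0.429 ± 0.614 CPM in the leukemic double mutant, 2.22 ± 0.689 in the double mutant, 3.58 ± 0.959 in Nras(G12D), 5.64 ± 4.14 in Tet2(-/-) and 13.01 ± 2.12 in WT (SD, n = 3 each).

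Ndn fell by 6.45 ± 1.14 on the log2 scale in the leukemic double mutant against WT (limma, adjusted p = 0.00305). Against the double mutant it fell by 3.87 ± 1.14 (limma, adjusted p = 0.0265). Leukemic library 2 has 0 counts, which limits it to 0.0988 CPM at 3 counts, so the size of these changes rests on the 0.5 count added before the log2. The fall against WT kept its call in all 16 alternatives, with log2 changes from -7.93 to -4.86. The fall against the double mutant lost it without leukemic library 2 (log2 and limma adjusted p of -2.28, 0.121) or 3 (-3.97, 0.0621), without double mutant library 1 (-3.64, 0.0690), 2 (-4.09, 0.0572) or 3 (-3.87, 0.0710), and in a fit of the compared groups alone (-3.87, 0.104). The other mutants lay below WT without overlap but did not pass, at a log2 of -2.58 ± 1.14 in the double mutant (limma, adjusted p = 0.293), -1.88 ± 1.14 in Nras(G12D) (0.984) and -1.75 ± 1.14 in Tet2(-/-) (0.348).

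Paternally expressed neighbours of Ndn on chromosome 7 did not share one pattern. Peg12 was at 1.30, 0.0329 and 0.405 CPM in the leukemic double mutant, 3.32 to 5.27 in the double mutant and 3.20 to 3.44 in WT. It fell by 3.47 ± 0.80 on the log2 scale in the leukemic double mutant against WT (limma, adjusted p = 0.00921), a call lost in a fit of the compared groups alone (0.0640). Mkrn3 was at 3.16, 0.198 and 0.623 CPM in the leukemic double mutant and 3.60, 4.28 and 4.85 in the double mutant. Its WT libraries had 1.03, 4.38 and 3.04 CPM and overlapped both groups. Mkrn3, and Snrpn and Magel2, which lay below the filter, were picked after their values were seen. Snrpn, which encodes a splicing protein, was at 2.63 CPM in Tet2(-/-) library 1 and 1.07, 0.782 and 0.952 in WT, and no other library exceeded 0.248. Magel2, a relative of Ndn, had counts in leukemic library 1 alone, at 0.0343 CPM, too few to show any pattern.

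Grb10 (chromosome 11, 11930508 to 12038683, minus strand, GRCm38) was low in the double mutant and in Nras(G12D) and higher in the leukemic double mutant. Grb10 stood at 38.02, 27.6 and 53.03 CPM in the leukemic double mutant, and double mutant libraries had 15.6, 14.7 and 9.16 CPM. Nras(G12D) libraries had 13.4, 21.2 and 18.2 CPM, Tet2(-/-) libraries 58.6, 20.9 and 15.1, and WT libraries 42.8, 45.4 and 54.9. Every leukemic library exceeded every double mutant library, and the leukemic and WT libraries overlapped. Tet2(-/-) library 1 was the highest of all 15, while libraries 2 and 3 of that group lay below WT. Means were 39.6 ± 12.8 CPM in the leukemic double mutant, 13.2 ± 3.48 in the double mutant, 17.6 ± 3.92 in Nras(G12D), 31.5 ± 23.6 in Tet2(-/-) and 47.7 ± 6.40 in WT (SD, n = 3 each).

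Grb10 rose by 1.57 ± 0.42 on the log2 scale in the leukemic double mutant against the double mutant (limma, adjusted p = 0.0179), which is 2.98-fold. That call was lost without leukemic library 3 (log2 and limma adjusted p of 1.34, 0.0748) or double mutant library 3 (1.33, 0.0772). Against WT the double mutant was at -1.89 ± 0.42 (limma, adjusted p = 0.0600) and Nras(G12D) at -1.45 ± 0.42 (0.824), both lower without overlap and neither past the threshold. The leukemic double mutant against WT was at -0.31 ± 0.42 (limma, adjusted p = 0.615).

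Insulin-like growth factor signalling genes outside the imprinted set were listed in 25 cases, of which 12 were tested. None passed in the double mutant against WT, where their median log2 change was 0.31, and up to 1 rose there with 1 library left out. Irs2, a signalling adaptor gene acting below the insulin and IGF1 receptors, was at 15.6, 57.7 and 25.1 CPM in the leukemic double mutant against 7.16, 6.49 and 8.75 in WT. It was the one that rose in that comparison (1.93 ± 0.50, limma adjusted p = 0.0146), and the call was lost without leukemic library 2 or WT library 1, with adjusted p up to 0.0740. None fell with all libraries, and 3 fell without leukemic library 1. Against Tet2(-/-) the double mutant had 4 of the 12 higher, among them the receptor genes Igf1r (1.12 ± 0.29, limma adjusted p = 0.0131) and Insr (1.33 ± 0.38, 0.0200), beside 20.1% higher among all tested genes. The number was 2 without double mutant library 2 or 3 or Tet2(-/-) library 3, and 1 without Tet2(-/-) library 1.

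Cdkn1c (chromosome 7, 143458339 to 143461050, minus strand, GRCm38) was low throughout and highest in 2 libraries of the double mutant. Cdkn1c stood at 2.85, 0.823 and 1.59 CPM in the leukemic double mutant, 1.07, 5.04 and 9.23 in the double mutant, 1.77, 2.09 and 0.712 in Nras(G12D), 0.935, 0.544 and 0.287 in Tet2(-/-), and 1.26, 1.995 and 1.32 in WT. All double mutant libraries exceeded all Tet2(-/-) libraries, and the Tet2(-/-) libraries lay below those of WT. Cdkn1c rose by 2.77 ± 0.73 on the log2 scale in the double mutant against Tet2(-/-) (limma, adjusted p = 0.0147), with means of 5.11 ± 4.08 CPM in the double mutant and 0.588 ± 0.326 CPM in Tet2(-/-) (SD, n = 3 each). The call was lost without double mutant library 2 (log2 and limma adjusted p of 2.54, 0.0606) or 3 (2.11, 0.0822), without Tet2(-/-) library 3 (2.34, 0.0707) and with a correction for gene GC content (1.48, 0.0878).

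Against WT, Cdkn1c was at a log2 of 1.30 ± 0.73 in the double mutant (limma, adjusted p = 0.448) and -1.47 ± 0.73 in Tet2(-/-) (0.232), and neither passed. Its interaction of Tet2 loss with Nras(G12D) was 2.87 ± 1.03 (limma, adjusted p = 0.155). Double mutant library 1, the low one for Cdkn1c, is also the library of that group with Ddx3y. With Y-linked genes as a covariate the change against Tet2(-/-) was 2.84 (limma, adjusted p = 0.0182). Cdkn1c shares 625 of its 2039 exonic bases with an annotated antisense gene, so reads of both cannot be told apart if strand was not used.

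Stem cell quiescence genes, a list of 26 that holds no member, were all tested. In the double mutant against WT, where Igf2r fell, none passed and the median log2 change was 0.05. Up to 1 rose there with 1 library left out. In the leukemic double mutant against WT 8 fell and none rose (median -0.63), beside 13.9% lower among all tested genes. Hlf, a stem cell transcription factor gene, was at 77.5, 3.89 and 22.7 CPM in the leukemic double mutant against 254, 217 and 238 in WT (log2 -3.63 ± 0.69, limma adjusted p = 0.00399). Procr, a stem cell surface receptor gene, fell by 3.48 ± 0.66 and Meis1, a homeobox gene, fell by 2.56 ± 0.51. The calls of these 3 genes held in all 16 alternatives tried for each. Without leukemic library 1 the list had 1 higher and 13 lower, and without leukemic library 2 or 3 or any 1 WT library it had 5 lower. In the same comparison 8 of 11 erythroid markers rose and 3 of 7 LSK-defining markers fell, beside 10.8% higher and 13.9% lower among all tested genes. Meis1 and Gata2 stand in both the LSK-defining and the quiescence list, so these lists are not separate. The erythroid rises numbered 2 without leukemic library 2 or WT library 1, 3 without leukemic library 3, 5 without WT library 2 or 3 and 10 without leukemic library 1. The LSK-defining falls numbered 1 without leukemic library 2 or 3 or WT library 1 or 3, 2 without WT library 2 and 5 without leukemic library 1. The part of these cells in the quiescence values and in those of Ndn was not tested.

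Cell cycle genes (20, all tested) gave 3 rises and no fall in the leukemic double mutant against WT, a share near the 10.8% higher among all tested genes. Ccne1, a G1 cyclin gene, was at 23.8, 141 and 129 CPM in the leukemic double mutant against 6.14, 8.10 and 6.04 in WT (log2 3.49 ± 0.56, limma adjusted p = 0.00212). The number was 8 without leukemic library 1 and 2 without any other 1 library of the comparison. In the double mutant against WT none of the 20 passed.

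**Figure D2:**
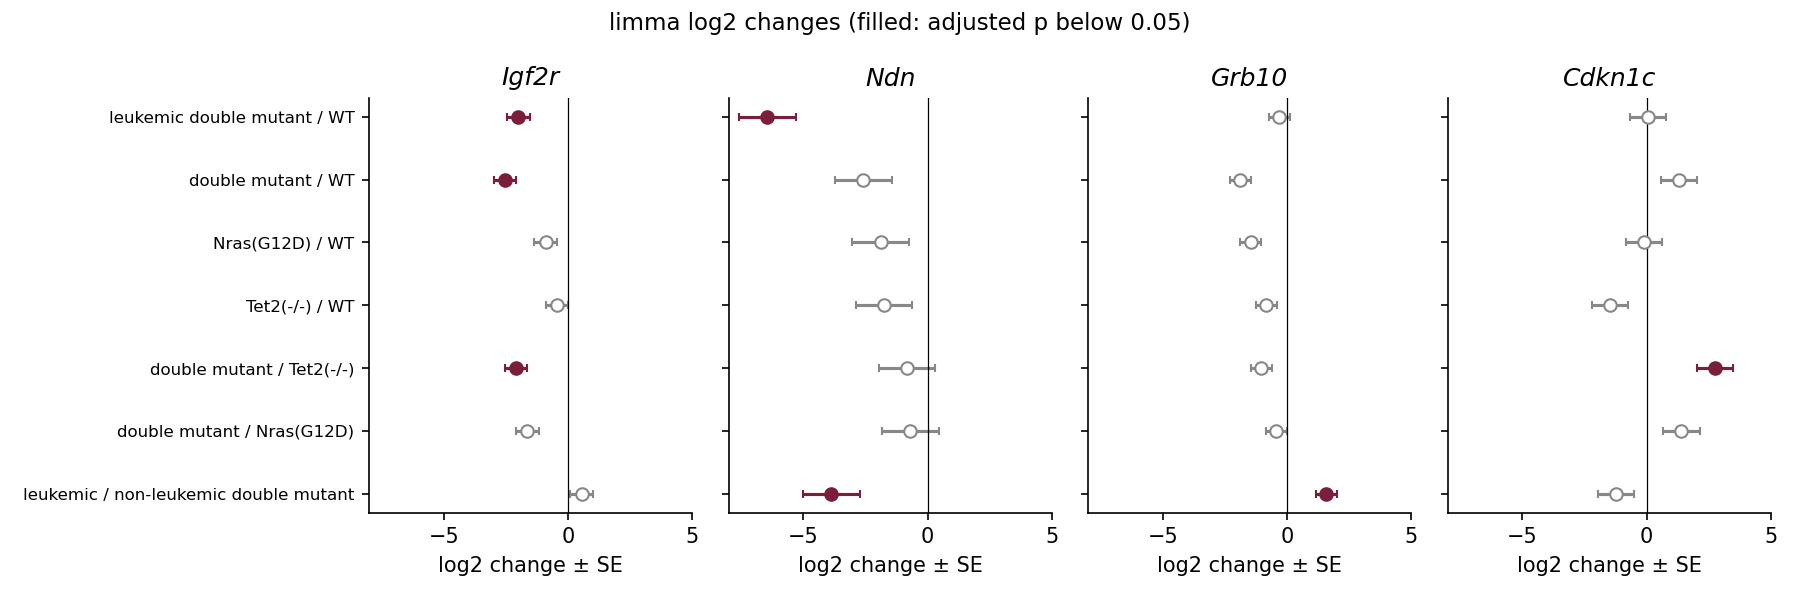
Log2 change ± standard error of the 4 tested genes in the 7 comparisons of 2 groups, from limma, where filled points have an adjusted p below 0.05. Filled points are Igf2r in 3 comparisons, Ndn in 2 and Grb10 and Cdkn1c in 1 each, and no gene passed for Nras(G12D) or Tet2(-/-) against WT.

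Counted per comparison, 2 of the 4 tested members fell in the leukemic double mutant against WT, where 24.7% of all tested genes were called (13.9% lower), and the same 2 lay lower without overlap, as 23.1% of tested genes did. In the double mutant against WT 1 fell, where 0.682% of all tested genes were called (0.194% lower), and 3 lay lower without overlap (20.8% of tested genes). Against Tet2(-/-) the double mutant had Cdkn1c higher and Igf2r lower, both without overlap. There 28.7% of genes were called, 20.1% higher and 8.57% lower, and 26% lay higher and 27.5% lower without overlap. Against Nras(G12D) none was called (0.079% of genes), and Igf2r lay lower without overlap (6.87%). The leukemic double mutant, set against the double mutant, had Grb10 higher and Ndn lower, both without overlap. There 24.3% of genes were called, 9.04% higher and 15.2% lower, and 19.7% lay higher and 23.4% lower without overlap.

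For Tet2(-/-) against WT limma called no member and 0.23% of genes, with 3304 genes, none of them a member, at an unadjusted p below 0.05. For Nras(G12D) against WT it called 0% of genes, with 577 at an unadjusted p below 0.05, of which Grb10 was one. Igf2r, Ndn and Cdkn1c lay lower without overlap in Tet2(-/-) (12.9% of tested genes), and Igf2r, Ndn and Grb10 did so in Nras(G12D) (6.53%). Voom with sample quality weights, which weights each library by its own spread, called Ndn lower in Tet2(-/-), among 6938 genes, and no member in Nras(G12D). Over all 5 groups the limma F test called Igf2r (adjusted p = 0.00376), Ndn (0.00645) and Grb10 (0.0127) but not Cdkn1c (0.0634), beside 44% of all tested genes. For the interaction limma called 0% of genes, with 2924 at an unadjusted p below 0.05. Voom called Igf2r and Cdkn1c there among 5917 of the 13927 tested genes, so these 2 calls do not set the members apart.

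Per kilobase of all annotated exons, Grb10, Igf2r and Ndn stood at similar levels in WT and far above the rest of the set. The length used for Ndn, 3694 bases, begins at 62346569, before its RefSeq promoter window at 62348027. Measured from the RefSeq start the level of Ndn could be higher, so its rank among these genes depends on the transcript models. In the leukemic double mutant the means were 4.35 ± 1.40 CPM per kb for Grb10, 1.27 ± 0.690 for Igf2r, 0.116 ± 0.166 for Ndn and 0.860 ± 0.501 for Cdkn1c (SD, n = 3 each). In WT they were 5.25 ± 0.704 CPM per kb for Grb10, 4.48 ± 0.794 for Igf2r, 3.52 ± 0.573 for Ndn and 0.747 ± 0.201 for Cdkn1c. The 6 genes below the filter had WT means of at most 0.0779 CPM per kb.

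Meg3 (chromosome 12, 109541001 to 109571726, plus strand, GRCm38) was detected mostly in 1 library. Tet2(-/-) library 1 had 133 of the 194 counts over all libraries, at 5.65 CPM, while the other two of that group had 4 each. Counts were 1, 0 and 0 in the leukemic double mutant, 6, 2 and 2 in the double mutant, 4, 0 and 4 in Nras(G12D), and 19, 5 and 10 in WT. Rian, a noncoding RNA of the same maternally expressed cluster, named after its values were seen, was also highest in Tet2(-/-) library 1, at 1.91 CPM against at most 0.610 in the other libraries. Dlk1 (chromosome 12, 109452823 to 109463336, plus strand, GRCm38), the paternally expressed gene beside Meg3, did not share that high value. It had 35, 0 and 6 counts in the leukemic double mutant, 2, 14 and 5 in the double mutant, 6, 7 and 7 in Nras(G12D), 12, 5 and 0 in Tet2(-/-), and 7, 12 and 16 in WT.

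Tet2(-/-) library 1 was also the highest of all libraries for Peg3 (24 counts, 1.02 CPM), Igf2 in CPM (11 counts, 0.467 CPM) and Grb10. It had the fewest total counts, the highest sum of the stem cell quiescence list, 4469 CPM against 986 to 3461 in the others, and the highest sum of LSK-defining markers. That library was singled out after its values were seen, and how far its cell makeup bears on these genes was not tested.

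Igf2 (chromosome 7, 142650766 to 142666816, minus strand, GRCm38) had 61 counts in all, with 2, 0 and 0 in the leukemic double mutant, 3, 3 and 7 in the double mutant, 1, 2 and 2 in Nras(G12D), 11, 7 and 2 in Tet2(-/-), and 5, 4 and 12 in WT. H19 (chromosome 7, 142575529 to 142578143, minus strand, GRCm38), its maternally expressed neighbour, had 7 counts in all and 0 in 11 of 15 libraries, among them all 6 libraries of the leukemic double mutant and the double mutant. A library with 0 counts is limited to 0.0775 to 0.127 CPM depending on its depth, counting error only, so a difference in H19 was not detectable at this depth.

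Plagl1 (chromosome 10, 13060504 to 13131694, plus strand, GRCm38) had 67 counts, with 1, 0 and 4 in the leukemic double mutant, 6, 6 and 3 in the double mutant, 5, 9 and 7 in Nras(G12D), 0, 6 and 0 in Tet2(-/-), and 4, 8 and 8 in WT. Peg3 (chromosome 7, 6703892 to 6730431, minus strand, GRCm38) had 87 counts, of which 7 were in the leukemic double mutant, 4 in the double mutant, 12 in Nras(G12D), 41 in Tet2(-/-) and 23 in WT. For none of these 6 genes did the libraries of 1 group stand clear of those of all other groups.

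**Figure D3:**
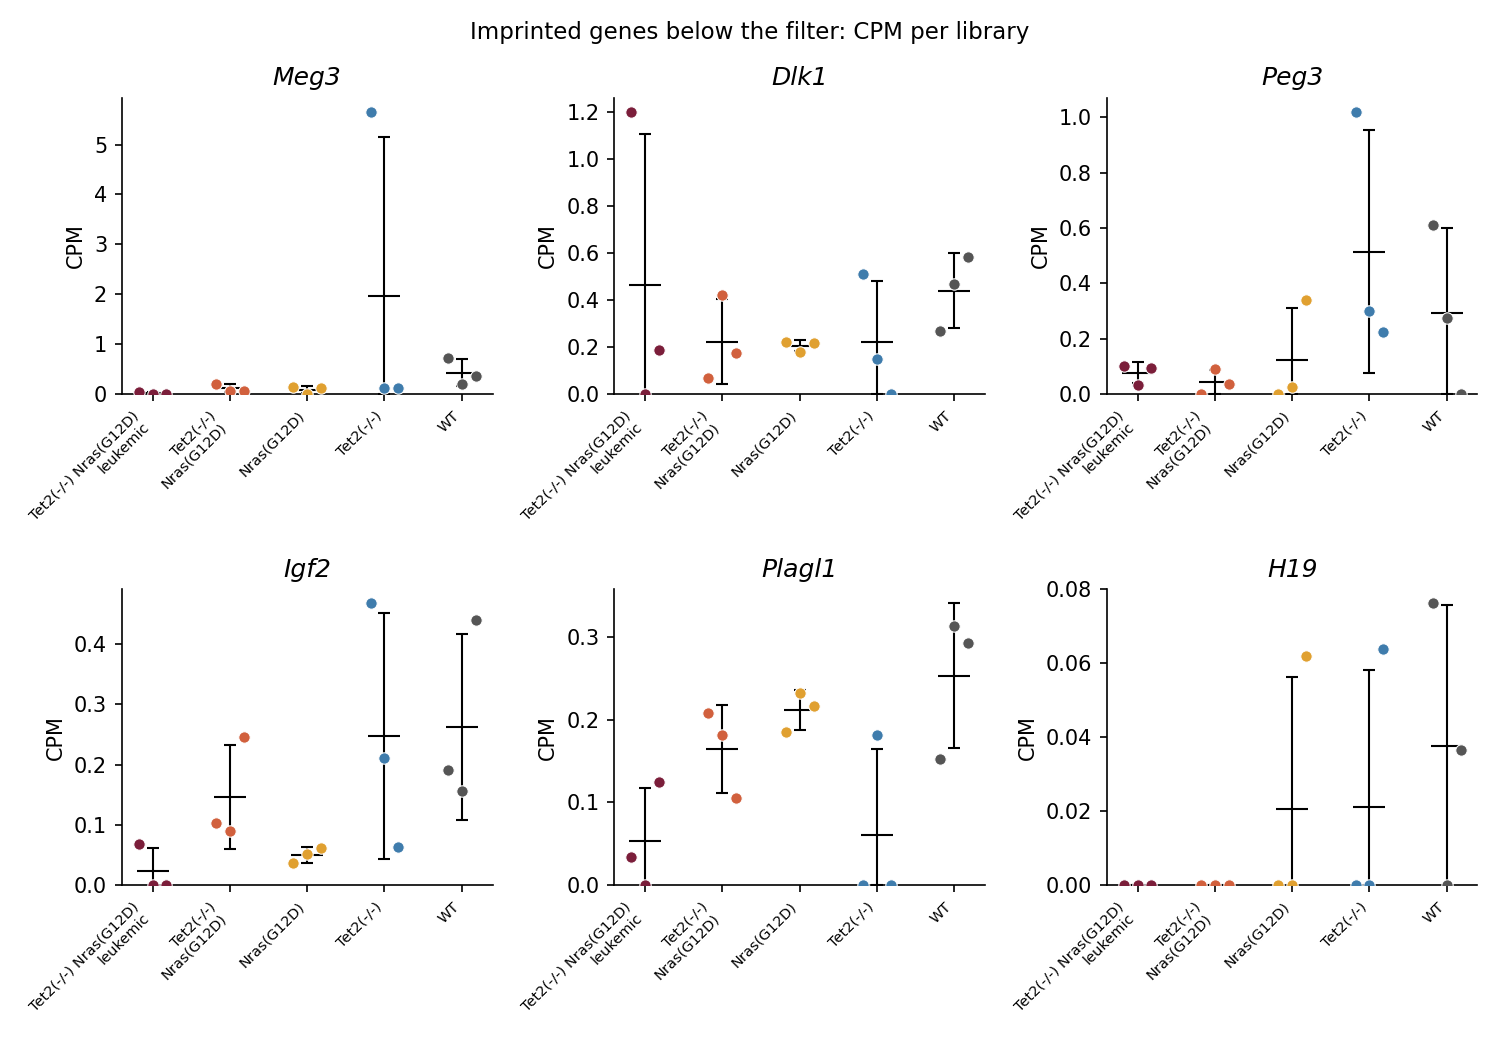
CPM of the 6 imprinted genes below the filter in each library (points), by group, with the mean (horizontal line) and SD (bars, ending at 0 where they would go below, n = 3). Meg3 reached 5.65 CPM in Tet2(-/-) library 1 and at most 0.724 elsewhere, Dlk1 reached 1.20 CPM in leukemic library 1, and H19 was at 0 in 11 libraries.

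The genes whose log2 values ran most like those of each tested member over the 15 libraries were taken from 12040 genes, as a description in which all points share the 5 groups. For Igf2r they were Slc5a6 (Pearson r = 0.852), a vitamin transporter gene, Gfpt1 (0.852), which encodes the first enzyme of the hexosamine pathway, and Tmem39b (0.851). Slc5a6 was at 9.61, 18.2 and 24.9 CPM in the leukemic double mutant, 14.8, 19.9 and 11.4 in the double mutant, against 27.9, 21.99 and 28.6 in WT. For Ndn they were Fam167a (0.970), Rasl12 (0.967) and the collagen chaperone gene Serpinh1 (0.966), which was at 0.377, 0 and 0.218 CPM in the leukemic double mutant against 3.01, 2.11 and 3.55 in WT. For Grb10 they were the transglutaminase gene Tgm2 (0.903), Npnt (0.902) and the clock repressor gene Bhlhe40 (0.855), and Tgm2 shared the high value of Tet2(-/-) library 1, at 98.6 CPM. For Cdkn1c they were Rnd2 (0.935), Enho (0.929) and Samd10 (0.915).

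Beyond the 10 members, 54 other imprinted genes were listed, of which 50 are in the table and 28 were tested. Maternally or paternally expressed is the label under which a gene was listed. Which copy was expressed in these LSK cells, or whether both were, was not measured. In the double mutant against WT 1 of the 28 rose, beside 0.488% of all tested genes, and none fell. That gene was Gnas, which encodes the stimulatory G-protein subunit (log2 2.63 ± 0.56, limma adjusted p = 0.0486). Its call was lost in 9 of 15 alternatives, with adjusted p up to 0.284. These were leaving out double mutant library 2 or 3 or any 1 WT library, an added count of 0.1, no filter, the compared groups alone and the GC correction. In the leukemic double mutant against WT 3 rose and 8 fell, with a median log2 change of -0.46, beside 10.8% higher and 13.9% lower among all tested genes. None of the 28 was called for Tet2(-/-) or Nras(G12D) against WT, or for the double mutant against Nras(G12D). With 1 library left out, up to 1 paternally and up to 1 maternally expressed gene fell in Tet2(-/-) against WT. In the double mutant against WT, up to 3 maternally expressed genes then rose and up to 1 paternally expressed gene fell.

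The maternally expressed genes that fell in the leukemic double mutant included Ppp1r9a, an actin-binding protein gene, at 17.5, 3.69 and 5.52 CPM in the leukemic double mutant against 47.6, 42.1 and 43.6 in WT (log2 -2.64 ± 0.45, limma adjusted p = 0.00264). Slc22a18, a transporter gene of the Cdkn1c cluster, fell by 1.99 ± 0.37 (limma, adjusted p = 0.00361). Osbpl5, a lipid-transfer protein gene of the same cluster, fell by 1.80 ± 0.37 (limma, adjusted p = 0.00574). These 3 calls held in all 16 alternatives tried for each, while Cdkn1c itself was at 0.06 ± 0.73 (limma, adjusted p = 0.964). Asb4, the fourth by adjusted p, fell by 2.22 ± 0.55 (0.0124) and lost its call without leukemic library 3 and with quantile normalization. The 17 maternally expressed genes gave 2 rises and 5 falls with all libraries. They gave 0 rises and 3 falls without leukemic library 3, and 0 rises without leukemic library 2 or WT library 1 or 3. Over all fits that left out 1 library their falls ran from 3 to 7.

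Of the paternally expressed genes Sgce, a sarcoglycan gene, fell by 2.58 ± 0.59 (limma, adjusted p = 0.00924) and Kcnq1ot1, a long noncoding RNA, fell by 1.34 ± 0.33 (limma, adjusted p = 0.0116). The Sgce call was lost in a fit of the compared groups alone and the Kcnq1ot1 call without WT library 1. Nespas, an antisense noncoding RNA of the Gnas cluster, was at 1.13, 2.54 and 2.71 CPM in the leukemic double mutant against 0, 0 and 0.110 in WT, and rose (limma, adjusted p = 0.00239). It shares 988 exonic bases with Gnas on the opposite strand, so reads of both may have gone to either gene. Among the 11 paternally expressed genes 3 fell. Leaving out 1 library gave 2 to 5 falls, with 5 without leukemic library 1.

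**Figure D4:**
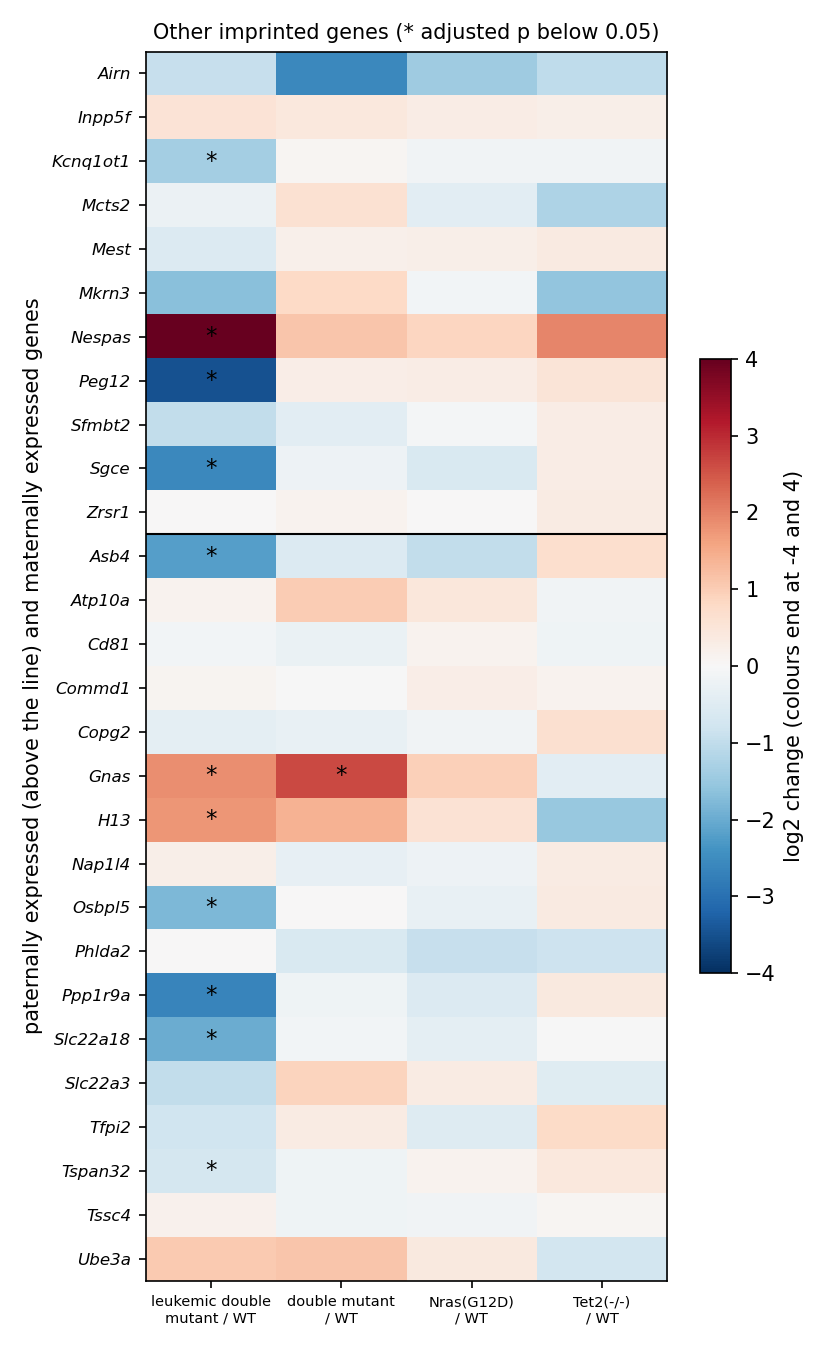
Log2 change against WT (colour, ending at -4 and 4) of the 28 other imprinted genes tested, listed as paternally expressed above the line and as maternally expressed below it, for the leukemic double mutant, the double mutant, Nras(G12D) and Tet2(-/-). Stars mark an adjusted p below 0.05: 11 genes for the leukemic double mutant, Gnas for the double mutant and none for the single mutants.

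A list of genes that keep, set or remove imprint methylation (17 of 20 tested) gave 2 rises and 3 falls in the leukemic double mutant against WT. These counts were near the shares among all tested genes (10.8% higher, 13.9% lower), and none passed in the double mutant against WT. Leaving out 1 library gave up to 3 rises and no fall in the double mutant against WT. The list holds Tet2 and its relatives, whose enzymes oxidise methylated cytosine rather than keep it, and Tet1 was among the falls. Zfp57, the zinc-finger protein that keeps methylation at imprinting control regions, was at 1.13, 0.132 and 0.530 CPM in the leukemic double mutant, 5.05, 4.37 and 3.51 in the double mutant, against 2.17, 2.66 and 3.002 in WT. It fell by 2.53 ± 0.58 on the log2 scale in the leukemic double mutant against WT (limma, adjusted p = 0.00918), a call lost in a fit of the compared groups alone (0.0527). The rises of that list numbered 1 without leukemic library 2 or WT library 2, and 0 without leukemic library 3, WT library 1 or WT library 3. Its falls numbered 2 without leukemic library 2 or 3 or any 1 WT library.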

How the data were processed

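The deposited table holds log2 CPM values for 44827 genes in 15 libraries. From the values, the authors added 0.5 to each count and 1 to a scaled library size before taking the log2, since 100% of values come back as whole counts within 1e-06. According to the submitters' processing notes the tools, in no stated order, included limma 3.28.21, edgeR 3.14.0, STAR 2.4.0f1 and bcl2fastq. Per the labels' protocols, RNA from sorted LSK cells was made into stranded mRNA libraries. Counting tool and annotation: not given in the sources used here. CPM here is the recovered count over the scaled library size, which is 0.813 to 1.12 times the total count.

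All 15 libraries entered 1 fit of the deposited log2 values with limma 3.58.1 in R 4.3.3, with trend and 10 residual degrees of freedom. The filter, 1 CPM or more in 3 or more libraries, left 13927 genes to test. P-values were adjusted by Benjamini-Hochberg over all tested genes, and called means an adjusted p below 0.05. Tests were 2-sided. The fit was tested on simulated data. The column of Nras(G12D) library 2 is spelled slightly differently from its label. Coordinates are from GENCODE on GRCm38. The members and lists were chosen with earlier results of these data known. Named are all 10 members, up to 4 called genes per list and comparison by adjusted p, the 3 genes most like each tested member, and Ddx3y and Xist. Tet2, as the deleted gene, and Airn, Slc22a3, M6pr, Mkrn3, Snrpn, Magel2 and Rian fall outside that rule and were picked after their values were seen. A gene that this rule names is not reported here.

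Other scalings, added counts, filters, weights, covariates, fits of the compared groups alone, a replicate block and leaving out each library in turn were tried. A GC correction, the F test and list counts under these settings were added after seeing the data.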

Additional observations from a re-analysis of the deposited data

How the results depend on the processing

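Each called member kept its direction in every alternative, and the 2 calls between leukemic double mutant and WT (Igf2r and Ndn) held in all 16. Without the filter Igf2, with 61 counts in all, was called lower in that comparison too, for 3 members among 3078 genes. The F test without the filter also called Igf2, for 4 members among 5636 genes. For the double mutant against WT (1 member, 95 genes), quantile normalization gave 2 members and 213 genes, Y-linked genes as a covariate 2 and 396, the GC correction 2 and 111, a fit of the compared groups alone 3 and 574, and voom with sample quality weights 4 and 3660. Leaving out 1 library gave 0 to 2 members there, with 992 genes without double mutant library 1 and 6 to 34 without any other. For the double mutant against Tet2(-/-) (2 members), a filter of 5 CPM gave 1, since Cdkn1c was not in that table, and leaving out 1 library gave 1 to 2. Between leukemic double mutant and double mutant (2), voom gave 4 and the compared groups alone 1, and leaving out 1 library gave 0 to 3. Voom called 1 member and 6938 genes for Tet2(-/-) against WT (0 members in the fit of the report and in every other alternative, and 32 genes in the fit of the report, 144 with quantile normalization, 57 with the compared groups alone, 60 with the GC correction, 53 with no filter, 15 with the 5 CPM filter, 48 with the Y covariate, 2235 without Tet2(-/-) library 2 and 5 to 54 without any other 1 library). For the interaction voom called 2 members and 5917 genes (0 of each in the fit of the report), and leaving out 1 library gave 0 to 1 members. The cause of these differences was not tested. With the replicate number as a block, Igf2r in the double mutant against WT had an adjusted p of 0.0283 and 1 member was called, and the block changed no other call of a member, while 713 genes were called for Tet2(-/-) against WT. Whether same-numbered libraries share a batch was not established. Over 30 such pairs the correlations ran from -0.346 to 0.294 with a median of 0.0717, and 12 were over 0.1. Of 15 libraries, 7 correlated best with their own number. Scaling by total counts put the median log2 change of all genes at -0.26 between leukemic double mutant and WT, and quantile normalization put it at -0.24 between double mutant and Tet2(-/-). Counts limit the 6 genes below the filter, and 3 libraries a group limit every test.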
